A study of Mus musculus with 16 samples.

Results

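The genes described here encode the IκB kinase (IKK) complex and the kinases that work beside it: Chuk, Ikbkb, Ikbkg, Ikbke, Tbk1, Map3k7, Tab1, Tab2, Map3k8 and Map3k14. They were chosen by name, 10 genes in all, and 9 of them were matched to a probe set of the array. Chuk, which encodes the catalytic subunit IKKα, was not matched and is not analysed here. All 9 matched genes were among the 15908 genes tested, each with 1 probe set. On every one of the 16 arrays they lay between the 49.8th and the 96.3rd percentile of the array, so the filter on low values, set at the 30th percentile, did not choose among them.

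When the receptor TLR4 senses lipopolysaccharide (LPS), a bacterial endotoxin, adaptor proteins activate TAK1, the kinase encoded by Map3k7, which phosphorylates the IKK complex. IKK in turn marks the inhibitor IκB for destruction, and p65, the NF-κB subunit encoded by Rela, enters the nucleus. IKKβ, TBK1 and IKKε can also phosphorylate p65 itself in its transactivation domain. In the liver this signalling runs in hepatocytes, in the resident macrophages (Kupffer cells) and in recruited leukocytes.

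Whole-liver RNA from male mice on a C57Bl/6 background was measured on Affymetrix whole-transcript arrays in 4 groups of 4 samples. The groups were untreated WT C57Bl6/J, WT given 1 mg/kg LPS, untreated S534A and S534A given 1 mg/kg LPS. S534A mice carry a germline knock-in, bred to homozygosity after backcrossing, in which a serine codon of p65 exon 10 is replaced by an alanine codon. The allele is therefore present in all cells of the liver, and the serine it removes lies in the domain that IKKβ, TBK1 and IKKε can phosphorylate. The knock-in came from ES cells of which several clones are mentioned, and the labels do not say which clone each mouse descends from. For untreated S534A livers the design text also names the LPS dose; their titles call them untreated, and the titles were followed. Neither age nor the interval between LPS and collection is stated in the labels, no vehicle injection is mentioned for the untreated mice, and WT mice are not described as littermates. Nothing in the labels ties each sample to an animal of its own. The p-values therefore reflect variation among these samples only, and that variation may be technical.

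Values are deposited log2 expression values after RMA, a procedure that corrects the background, equalizes the arrays and combines the probes of a gene. They ran from 3.49 to 14.54 over the table, and array medians lay between 6.25 and 6.42. A difference of 1 on this scale is a doubling. Levels of different genes are not compared, since each probe set has its own brightness. Rela itself lay between 9.88 and 10.34 in the 8 untreated samples and between 11.31 and 11.47 in the 8 LPS samples, and a point substitution leaves its transcript level uninformative on the genotype labels. Of the 7 hepatocyte markers measured, Ttr and Apob among them, the mean log2 level stayed between 13.46 and 13.56 on all arrays. A whole-liver sample does not separate a change in the number of cells of a type from a change in RNA per cell. Differences (± the standard error) come from limma fitted to all 16 arrays, and a gene is called when its p-value, adjusted by Benjamini-Hochberg over all 15908 genes, is under 0.05.

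The response of these genes to LPS was divided. In WT livers 5 of the 9 rose and 0 fell, against 14.9% of all genes tested that were called higher and 29.9% called lower. In S534A livers the same 5 genes rose and 0 fell, against 14.2% and 31.2% of all genes. The risers were the IKK-related kinases Ikbke and Tbk1, the MAP kinase kinase kinase Map3k8, the NF-κB-inducing kinase Map3k14 and the regulatory subunit Ikbkg. The catalytic subunit Ikbkb and the TAK1 complex genes Map3k7, Tab1 and Tab2 were not called in either genotype. The median LPS difference of the 9 genes was 0.54 in WT and 0.42 in S534A, beside a median over all genes of −0.05 and −0.03. The groups did not overlap for 5 of the 9 genes in WT and for 6 of the 9 in S534A. Over all genes 38.3% in WT and 48.1% in S534A did not overlap.

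**Figure D1:**
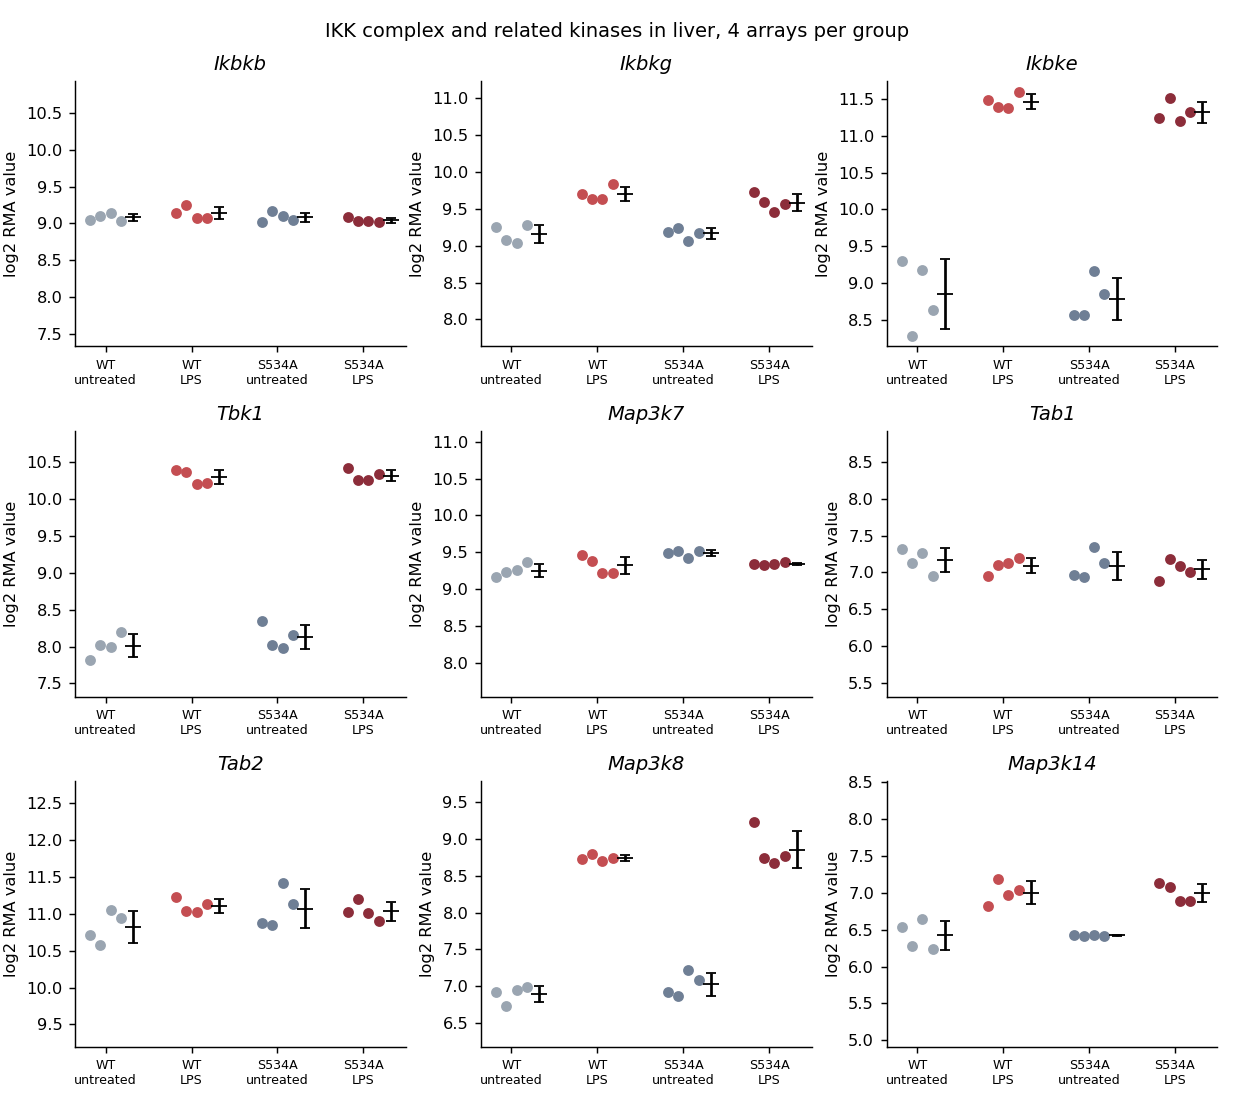
Log2 RMA value of each measured gene on each array, in untreated and LPS-treated WT and S534A livers; points are the 4 arrays of a group, the bar beside them is the mean ± SD, and every panel spans the same log2 range around its own centre. Ikbke, Tbk1 and Map3k8 show LPS groups far above the untreated ones, with Ikbke at 8.29 to 9.30 untreated and 11.20 to 11.59 after LPS, while Ikbkb, Map3k7, Tab1 and Tab2 differ by at most 0.28 between LPS and untreated.

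Ikbkb encodes IKKβ, the main catalytic subunit of the canonical pathway. Untreated WT livers had log2 levels of 9.05, 9.10, 9.14 and 9.04, beside 9.14, 9.25, 9.08 and 9.08 after LPS. In S534A livers it was 9.01, 9.16, 9.09 and 9.05 untreated and 9.09, 9.03, 9.03 and 9.03 after LPS. All 16 values fell between 9.01 and 9.25 and the groups overlapped. The LPS difference was 0.05 ± 0.06 in WT (95% interval −0.07 to 0.18, limma adjusted p = 0.525) and −0.04 ± 0.06 in S534A (−0.17 to 0.09, limma adjusted p = 0.629).

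Ikbkg encodes NEMO, the subunit without kinase activity that holds the catalytic subunits together and binds ubiquitin chains. It read 9.25, 9.07, 9.03 and 9.28 in untreated WT livers and 9.70, 9.63, 9.63 and 9.84 after LPS. Untreated S534A livers read 9.19, 9.24, 9.07 and 9.18, and LPS-treated ones 9.73, 9.59, 9.46 and 9.56. Every LPS sample lay above every untreated sample in both genotypes. Ikbkg rose by 0.54 ± 0.08 with LPS in WT (1.46-fold, limma adjusted p = 2.68e-05), and S534A livers showed a rise of 0.42 ± 0.08 (1.34-fold, limma adjusted p = 0.000338). It was the smallest rise among the 5 called genes in both genotypes.

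Ikbke encodes IKKε, an inducible relative of the IKK subunits that phosphorylates the interferon regulatory factors IRF3 and IRF7. In untreated WT livers its level was 9.30, 8.29, 9.17 and 8.63, and after LPS it was 11.49, 11.39, 11.37 and 11.59. Untreated S534A livers gave 8.57, 8.57, 9.16 and 8.85, and LPS-treated ones 11.24, 11.51, 11.20 and 11.32. The treated samples were close together, and the untreated ones were spread more widely than for any other gene of the set, with an SD of 0.47 in WT and 0.28 in S534A against 0.10 and 0.14 after LPS. Ikbke rose by 2.61 ± 0.18 with LPS in WT (6.12-fold, limma adjusted p = 4.71e-09), and S534A livers showed a rise of 2.53 ± 0.18 (5.78-fold, limma adjusted p = 6.90e-09). These were the largest rises of the 9 genes, and in WT the difference ranked 151st in size among all genes tested.

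Tbk1 encodes the constitutive counterpart of IKKε, which acts downstream of the adaptor TRIF. Its level was 7.82, 8.03, 7.998 and 8.20 in untreated WT livers and 10.40, 10.37, 10.21 and 10.22 after LPS. It was 8.35, 8.03, 7.98 and 8.16 in untreated S534A livers and 10.42, 10.26, 10.26 and 10.34 after LPS. The treated and untreated ranges were far apart in both genotypes and narrow within each group. LPS raised Tbk1 by 2.29 ± 0.09 in WT livers (4.89-fold, limma adjusted p = 3.57e-12), and S534A livers showed a rise of 2.19 ± 0.09 (4.57-fold, limma adjusted p = 6.56e-12). Of the 9 genes Tbk1 had the lowest adjusted p in both genotypes.

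Map3k7 encodes TAK1, the kinase that activates IKK and also the p38 and JNK pathways. WT livers read 9.16, 9.23, 9.25 and 9.36 untreated and 9.46, 9.38, 9.23 and 9.22 after LPS. S534A livers read 9.49, 9.52, 9.43 and 9.52 untreated and 9.35, 9.33, 9.34 and 9.36 after LPS. In WT the groups overlapped, and in S534A every LPS sample lay below every untreated one. The difference was 0.07 ± 0.07 in WT (limma adjusted p = 0.457) and −0.15 ± 0.07 in S534A (limma adjusted p = 0.0879). The S534A difference was called lower with each array centred on its median (−0.24, limma adjusted p = 0.0106), with array quality weights (−0.16, limma adjusted p = 0.0194) and with a fit to the 2 S534A groups alone (−0.15, limma adjusted p = 0.0408). In the other 8 of 11 such alternatives it was not called. One of these was a second quantile normalization, which equalizes the arrays again (−0.10, limma adjusted p = 0.163). Leaving out single arrays gave no call, with a lowest limma adjusted p of 0.0707.

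Tab1 and Tab2 encode the binding partners of TAK1, of which TAB1 activates the kinase and TAB2 tethers it to ubiquitin chains. Tab1 gave 7.32, 7.13, 7.26 and 6.95 in untreated WT livers, 6.96, 7.10, 7.13 and 7.19 after LPS, 6.97, 6.93, 7.35 and 7.12 in untreated S534A livers and 6.89, 7.18, 7.09 and 7.01 after LPS. The 4 groups overlapped, and the LPS difference was −0.07 ± 0.10 in WT (limma adjusted p = 0.632) and −0.05 ± 0.10 in S534A (limma adjusted p = 0.719). Tab2 gave 10.72, 10.58, 11.05 and 10.94 in untreated WT livers and 11.23, 11.04, 11.02 and 11.13 after LPS. In S534A livers it was 10.88, 10.86, 11.42 and 11.13 untreated and 11.02, 11.20, 11.01 and 10.90 after LPS. The third untreated WT sample lay within the LPS range, and the untreated S534A range held that of the LPS-treated samples on both sides. The Tab2 difference was 0.28 ± 0.12 in WT (limma adjusted p = 0.0743) and −0.04 ± 0.12 in S534A (limma adjusted p = 0.830). In WT it passed the threshold without untreated WT sample 3 (0.36, limma adjusted p = 0.0327). It also passed without untreated S534A sample 3, which enters only the estimate of the spread (0.28, limma adjusted p = 0.0369). In the other 14 of 16 fits with 1 array left out it was not called. Centring each array on its median made the WT difference smaller (0.18, limma adjusted p = 0.216). So did equalizing the arrays again (0.26, limma adjusted p = 0.105).

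Map3k8 encodes Tpl2 (Cot), a kinase that is held inactive by the NF-κB precursor p105 until IKK frees it and that then drives the ERK pathway. It read 6.92, 6.73, 6.95 and 6.98 in untreated WT livers and 8.73, 8.79, 8.70 and 8.74 after LPS. In S534A livers it read 6.93, 6.86, 7.22 and 7.09 untreated and 9.23, 8.74, 8.68 and 8.77 after LPS. Treated and untreated samples did not overlap, and the first LPS-treated S534A sample stood above the other 15. Map3k8 rose by 1.85 ± 0.11 with LPS in WT (3.59-fold, limma adjusted p = 6.20e-10), and S534A livers showed a rise of 1.83 ± 0.11 (3.55-fold, limma adjusted p = 6.85e-10). Without that first sample the S534A rise was 1.70.

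Map3k14 encodes NIK, which starts the non-canonical pathway through IKKα and whose protein is kept low by a TRAF and cIAP complex. Its level was 6.54, 6.28, 6.65 and 6.23 in untreated WT livers and 6.82, 7.19, 6.97 and 7.04 after LPS. Untreated S534A livers gave 6.43, 6.42, 6.43 and 6.42, and LPS-treated ones 7.13, 7.08, 6.89 and 6.89. The treated samples lay above all untreated ones in both genotypes. The untreated S534A samples were almost identical, with an SD of 0.0054 against 0.20 in untreated WT. Map3k14 lay between the 49.8th and the 61.1st percentile of the arrays. How far its signal stood above background could not be assessed. Map3k14 rose by 0.58 ± 0.10 with LPS in WT (1.49-fold, limma adjusted p = 0.000125), and S534A livers showed a rise of 0.58 ± 0.10 (1.49-fold, limma adjusted p = 0.000129).

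**Figure D2:**
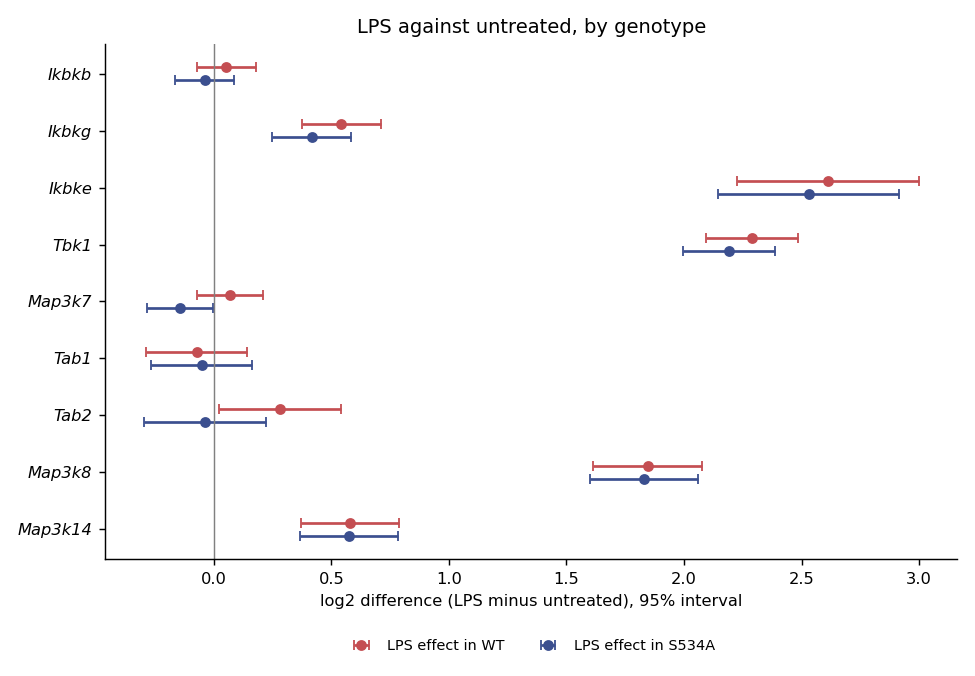
LPS minus untreated on the log2 scale for the 9 measured genes, in WT and in S534A livers, with 95% intervals from limma (4 arrays per group). Ikbke, Tbk1 and Map3k8 lie between 1.83 and 2.61, Ikbkg and Map3k14 between 0.42 and 0.58, and the points of both genotypes lie close together for each of these 5 genes.

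Promoter sequences are shown for the largest risers, Ikbke and Tbk1, and for Map3k7, which was not called and held the only NF-κB motif match. They are the 250 bases before the annotated start, from RefSeq on build GRCm38.p6. For these genes, entries on 1 chromosome were left out of the search. Among the rest, 7 of the 10 genes have at least 1 entry. Ikbkb, Tab1 and Map3k8, the last a strong riser, have none there and were not searched. The stretches are chr1:131279564-131279813 (minus strand) for Ikbke, chr10:121586795-121587044 (minus strand) for Tbk1 and chr4:31963857-31964106 (plus strand) for Map3k7. They were searched on both strands for the 10-base NF-κB motif, for an interferon response core of GAAANNGAA and for a STAT motif of TTCNNNGAA, and matches are in capitals.
Ikbke: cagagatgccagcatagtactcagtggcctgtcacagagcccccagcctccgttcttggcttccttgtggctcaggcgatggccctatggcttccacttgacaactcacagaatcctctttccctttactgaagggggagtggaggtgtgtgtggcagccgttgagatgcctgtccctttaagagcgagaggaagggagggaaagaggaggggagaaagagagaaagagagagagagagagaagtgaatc
Tbk1: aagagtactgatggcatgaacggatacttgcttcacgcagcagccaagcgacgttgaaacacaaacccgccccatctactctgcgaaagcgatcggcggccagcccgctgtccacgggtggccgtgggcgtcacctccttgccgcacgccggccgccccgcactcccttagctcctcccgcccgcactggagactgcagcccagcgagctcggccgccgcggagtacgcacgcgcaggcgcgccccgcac
Map3k7: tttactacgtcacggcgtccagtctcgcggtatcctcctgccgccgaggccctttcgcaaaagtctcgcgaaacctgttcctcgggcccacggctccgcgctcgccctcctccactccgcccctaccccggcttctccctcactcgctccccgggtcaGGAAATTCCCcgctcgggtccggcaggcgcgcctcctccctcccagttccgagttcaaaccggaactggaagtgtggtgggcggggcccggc

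The Ikbke and Tbk1 stretches held none of these motifs. The Map3k7 stretch held 1 match to the NF-κB motif, from 92 to 83 bases before the start. Chuk held 1 stretch matching the STAT motif, a pattern that matches on both strands at once, from 201 to 193 bases before its start. No match overlapped a match to another motif. The other 9 of the 11 windows searched for these genes, several of which belong to alternative starts of Ikbkg and Tab2, held none. Over all 32851 promoter windows in the table, 7.25% held the NF-κB motif, 7.13% the interferon response core and 7.02% the STAT motif. A match describes letters and is no evidence of binding, and sites outside these windows were not searched.

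The genotype comparisons ask whether a substitution in the domain that some of these kinases act on goes with a different transcript level of the 9 genes. After LPS, 0 of the 9 genes were called between S534A and WT, as were 0 of all genes tested (0%), and at an unadjusted limma p under 0.05 there were 0 of the 9 and 477 of all genes. The largest difference among the 9 was that of Ikbke, at −0.14 ± 0.18 (95% interval −0.53 to 0.24). For Tbk1 it was 0.02 ± 0.09 (−0.18 to 0.21), for Map3k8 0.11 ± 0.11 (−0.12 to 0.34), for Map3k14 −0.01 ± 0.10 (−0.21 to 0.20) and for Ikbkb −0.09 ± 0.06 (−0.22 to 0.03). The LPS-treated groups overlapped for all 9 genes, and 2.03% of all genes did not overlap.

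In untreated livers 0 of the 9 genes were called, against 2 of all genes (0.0126%), while 1 of the 9 and 1412 of all genes had an unadjusted limma p under 0.05. The 1 gene was Map3k7, at 9.43 to 9.52 in S534A and 9.16 to 9.36 in WT. The ranges did not overlap, as was so for 5.69% of all genes, and the difference was 0.24 ± 0.07 (95% interval 0.10 to 0.38, limma adjusted p = 0.248). It passed with array quality weights (0.28, limma adjusted p = 0.0382), a setting under which 370 genes were called in place of 2. After LPS the Map3k7 difference was 0.02 ± 0.07. Tab2 had a difference of about the same size in untreated livers, 0.25 ± 0.12 (−0.01 to 0.51, limma adjusted p = 0.583), with overlapping ranges. Without untreated S534A sample 3 it was 0.13 ± 0.11, and over all single arrays left out it ran from 0.13 to 0.32, where Map3k7 ran from 0.21 to 0.28. Ikbke stood at −0.06 ± 0.18, Map3k8 at 0.13 ± 0.11, Tbk1 at 0.12 ± 0.09, Tab1 at −0.07 ± 0.10, Ikbkg at 0.01 ± 0.08, and Ikbkb and Map3k14 at 0.00 ± 0.06 and 0.00 ± 0.10. The Ikbke difference had no stable direction, and ran from −0.25 without untreated WT sample 2 to 0.09 without untreated WT sample 1.

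The LPS effect itself, tested as an interaction (S534A minus WT), was not called for any of the 9 genes or for any gene tested (0%), and 1 of the 9, Map3k7, and 766 of all genes had an unadjusted limma p under 0.05. For the 3 strongest risers the interaction was −0.08 ± 0.26 for Ikbke (95% interval −0.63 to 0.46), −0.10 ± 0.13 for Tbk1 (−0.37 to 0.18) and −0.02 ± 0.15 for Map3k8 (−0.34 to 0.31). The interval for Ikbke is the widest of the set, and a difference in its LPS effect of up to 0.63 lies within it. Map3k7 stood at −0.21 ± 0.09 (−0.41 to −0.01, limma adjusted p = 0.951) and Tab2 at −0.32 ± 0.17 (−0.69 to 0.05, limma adjusted p = 0.951). These comparisons share arrays with those within each genotype.

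**Figure D3:**
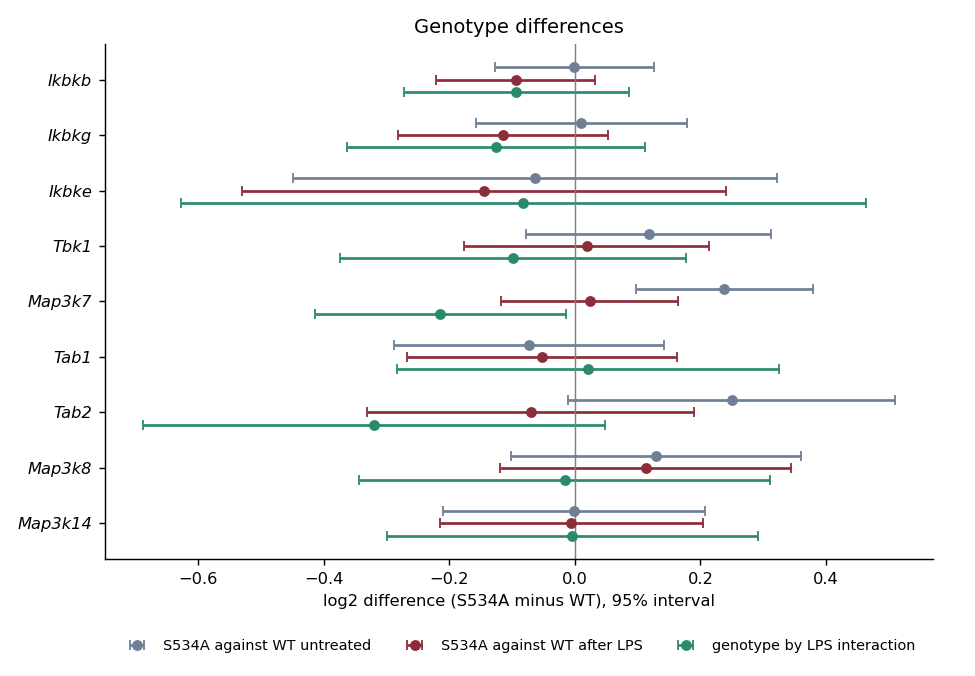
S534A minus WT on the log2 scale for the 9 measured genes in untreated livers, after LPS, and for the LPS effect (interaction), with 95% intervals from limma (4 arrays per group). All intervals after LPS cross 0, that of Map3k7 in untreated livers runs from 0.10 to 0.38, and Ikbke has the widest intervals.

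In untreated livers the level of Ikbke varied together with that of clock genes, and this was noticed after the values were seen. A clock score was computed per array as the mean of the period genes Per1, Per2 and Per3 and the clock output genes Dbp and Tef, less the level of Arntl. It was −1.70 and −1.77 in untreated WT samples 1 and 3 and −2.55 in untreated S534A sample 3, against 3.43 and 3.47 in untreated WT samples 2 and 4 and 3.33, 3.41 and 0.96 in untreated S534A samples 1, 2 and 4. The 3 samples with scores below 0 had Ikbke at 9.30, 9.17 and 9.16, and the other 5 lay between 8.29 and 8.85, with sample 4 of S534A, of intermediate score, the highest of them. Tab1 was likewise highest in the 3 samples, at 7.26 to 7.35, and lay at 6.93 to 7.13 in the other 5. Tbk1 ran the other way: the 3 samples were its 3 lowest, at 7.82, 7.998 and 7.98, and the other 5 lay between 8.03 and 8.35. For Ikbkb, Ikbkg, Map3k7 and Map3k8 the 3 samples and the other 5 overlapped. Tab2 overlapped too, with untreated WT sample 1 at 10.72 below untreated WT sample 4 at 10.94. Within untreated S534A, sample 3 had the highest Tab2 level, at 11.42. In Map3k14 the WT samples 1 and 3 were the 2 highest, while S534A sample 3 read 6.43 in a group that ran from 6.42 to 6.43.

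With the clock score as a covariate the Ikbke rise was 2.60 ± 0.09 in WT (limma adjusted p = 3.78e-13) and 2.46 ± 0.09 in S534A (limma adjusted p = 8.84e-13), so its standard error went from 0.18 to 0.09. Without the 3 samples it was 3.002 ± 0.12 in WT and 2.66 ± 0.11 in S534A, with an interaction of −0.35 ± 0.16 (limma adjusted p = 1.00) in place of −0.08. Between untreated genotypes the Ikbke difference without the 3 samples was 0.20 ± 0.13 (limma adjusted p = 0.795) in place of −0.06, and that of Map3k14 was 0.17 ± 0.11 (limma adjusted p = 0.805) in place of 0.00. The Tab2 difference in WT passed the threshold in both settings, which gives 6 called genes in WT in place of 5. It was 0.28 ± 0.10 with the covariate (limma adjusted p = 0.0257) and 0.34 ± 0.12 without the samples (limma adjusted p = 0.0326). In the other 9 of 11 alternatives Tab2 was not called in WT. The labels give no hour of collection, and the part of the clock in these differences was not tested further.

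**Figure D4:**
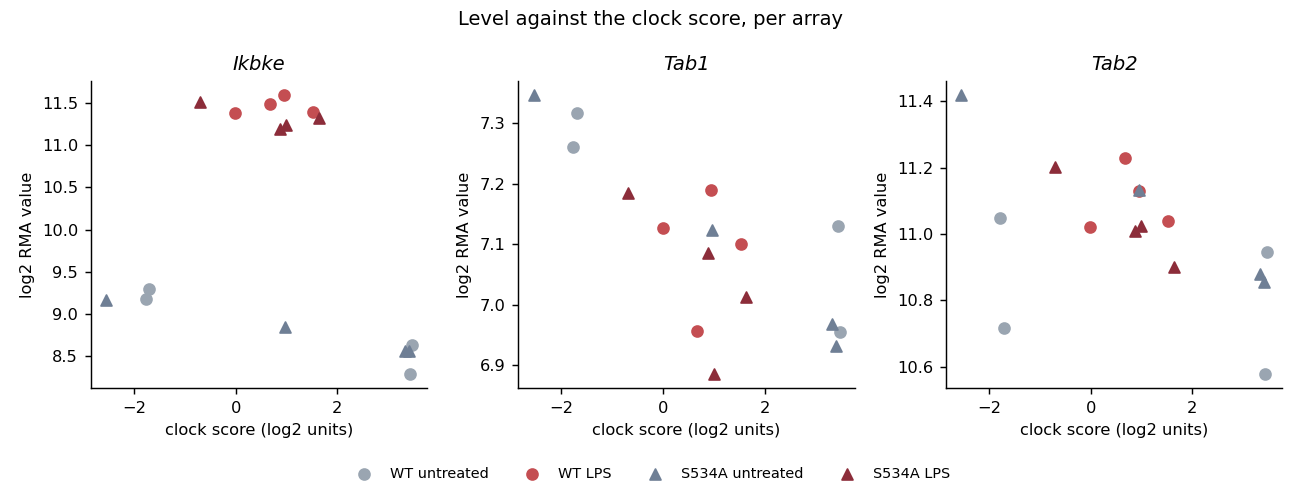
Log2 RMA value of Ikbke, Tab1 and Tab2 (vertical axes, each with its own range) against the clock score of the same array (horizontal axis), for all 16 arrays; circles are WT and triangles S534A, grey untreated and red LPS. In untreated livers the 3 arrays with scores below 0 hold the 3 highest Ikbke and Tab1 values; the LPS arrays hold Ikbke at 11.20 to 11.59 at scores from −0.70 to 1.63.

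Profiles were compared over the 16 arrays, each gene centred on its untreated WT mean. Genes with predicted-gene, clone, olfactory or small RNA symbols were left out, so the search covered 14708 genes. Among these the genes nearest to Ikbke were Fas, a death receptor, Pml, a nuclear body protein, and Parp11. Their root mean square differences were 0.19, 0.19 and 0.22 on the log2 scale. Those nearest to Tbk1 were Parp9, N4bp1 and Tasor2 (0.11 each). Those nearest to Map3k8 were Sbno2, Clic4 and Birc3 (0.12, 0.14 and 0.15), of which Birc3 encodes a ubiquitin ligase of the complex that limits NIK. These 9 genes rose by 1.78 to 2.57 in WT, and the measure says nothing about shared control.

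The genes that surround these kinases also moved unevenly in WT livers after LPS. The list counts that follow stand beside 14.9% of all genes called higher and 29.9% called lower in WT. In S534A these shares were 14.2% and 31.2%. All 7 measured IKK substrates and NF-κB subunits rose, among them Nfkb2 (2.09 ± 0.09), the non-canonical subunit whose processing NIK starts, and the IκB genes Nfkbie (1.92 ± 0.10) and Nfkbib (0.98 ± 0.08). In S534A 6 of the 7 rose, and Rel stood at 0.16 ± 0.09. Of 12 brakes on TAK1 and IKK 9 rose and 0 fell, among them the interferon-induced protease Usp18 (4.08 ± 0.08), the kinase-dead IRAK family member Irak3 (3.83 ± 0.10), the ubiquitin-editing enzyme Tnfaip3 (3.26 ± 0.09) and its partner Tnip1 (2.04 ± 0.09). In S534A 9 rose and 2 fell, the phosphatase genes Ppm1b (−0.47 ± 0.10) and Ppp6c (−0.41 ± 0.13). The median of the brakes was 1.14 in WT and 1.13 in S534A.

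On the list drawn up for the control of NIK, 6 of 10 genes rose and 1 fell in WT. Among the risers were the cIAP genes Birc2 (2.35 ± 0.13) and Birc3 (1.78 ± 0.08) and the receptor Cd40 (2.11 ± 0.13). Another was the TNF receptor gene Tnfrsf1a (0.95 ± 0.09), whose part in NIK control these data do not show. Of 10 adaptors and scaffolds 4 rose and 2 fell. The risers held Tnip2 (1.62 ± 0.09), which stabilizes Tpl2, and the TBK1 adaptors Azi2 (1.09 ± 0.09) and Tank (0.44 ± 0.07), while the NF-κB inhibitor-interacting GTPase gene Nkiras2 fell by 0.56 ± 0.10. Upstream of TAK1 and IKK 8 of 18 genes rose and 2 fell, with the LPS co-receptor Cd14 (4.73 ± 0.21), the adaptor Myd88 (2.19 ± 0.08) and Rnf31 (1.84 ± 0.11), the catalytic subunit of the linear ubiquitin ligase, among the risers and the TNF receptor adaptor Tradd (−0.66 ± 0.10) among those that fell. S534A livers had 6 higher and 1 lower on the NIK list, 3 and 3 among the adaptors and 8 and 3 upstream.

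On the TBK1 and IKKε side, 4 of 6 measured target and sensor genes rose and 2 fell in both genotypes. In WT the RNA sensors Dhx58 (2.91 ± 0.11), Ifih1 (2.64 ± 0.07) and Ddx58 (2.03 ± 0.10) and the factor Irf7 (2.53 ± 0.13) rose. Irf3, the constitutive substrate of both kinases, fell by 0.39 ± 0.07 and the adaptor Mavs fell by 1.52 ± 0.15, both named after their values were seen. Other kinases reported to act on p65 had 2 of 9 higher and 5 lower in both genotypes. In WT Pim1 rose by 1.61 ± 0.19 and Atm by 1.30 ± 0.14, and Prkacb, a catalytic subunit of protein kinase A, and Akt1 fell by 0.73 ± 0.11 and 0.55 ± 0.10. In the MAP kinase arm, where TAK1 and Tpl2 also signal, 4 of 9 genes rose and 3 fell in WT (4 and 2 in S534A). Map2k1, the kinase that Tpl2 phosphorylates, rose by 1.27 ± 0.08 and Mapkapk2 by 0.62 ± 0.09, whereas the p38 activator Map2k6 fell by 1.42 ± 0.23 and the JNK gene Mapk9 by 0.45 ± 0.08. With each array centred on its median the counts in WT became 7 higher and 5 lower upstream of TAK1 and IKK and 8 higher and 1 lower among the brakes. In S534A they became 6 and 3 upstream and 9 and 3 among the brakes. The adaptors then had 4 higher and 3 lower in WT and 3 and 4 in S534A. The NIK list had 6 and 2 in WT and 5 and 1 in S534A. In both genotypes the MAP kinase arm had 3 and 3 and the other p65 kinases 2 and 6. Counts for the substrates and for the TBK1 and IKKε targets stayed the same.

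**Figure D5:**
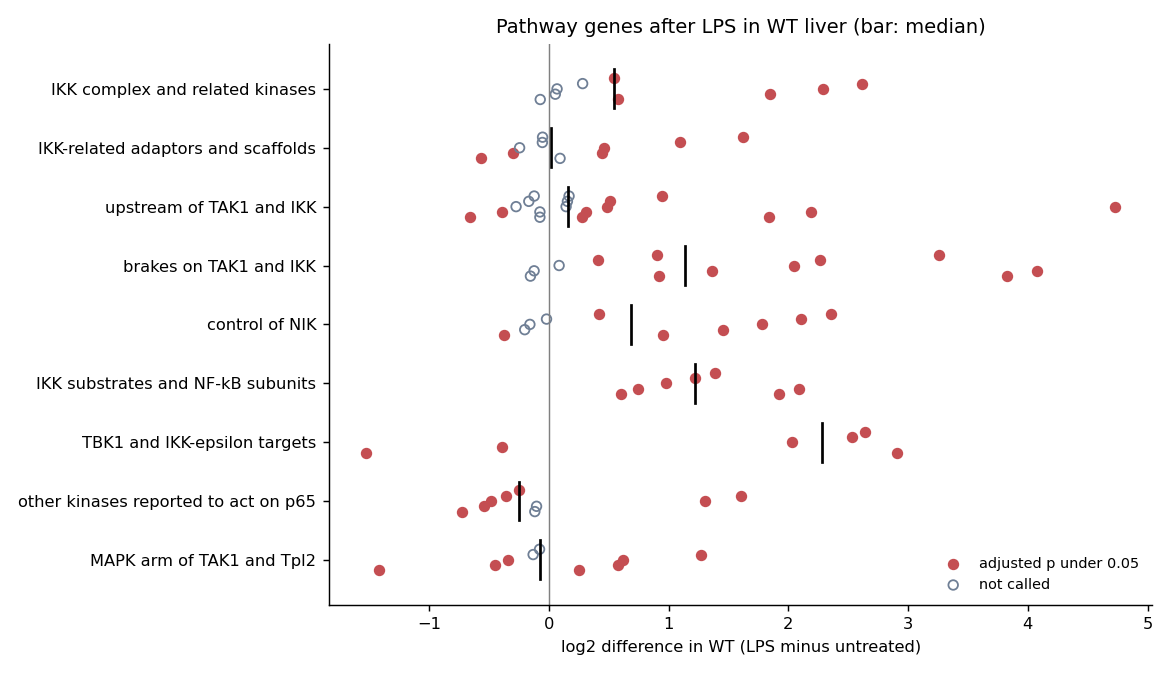
LPS minus untreated in WT livers on the log2 scale (horizontal axis) for the genes of each list; filled points are genes with a limma adjusted p under 0.05, open points the others, and the black bar is the median of the list. The IKK-related kinases have a median of 0.54, the brakes 1.14 and the other p65 kinases −0.25.

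Markers of several cell types also changed after LPS, in different directions. Over all genes tested 14.9% were called higher and 29.9% lower in WT, and 14.2% and 31.2% in S534A. All 12 neutrophil markers rose in both genotypes, with Hcar2 at 3.88 ± 0.12 and Retnlg at 2.47 ± 0.11 in WT. Their summed linear signal was 600.1 to 676.5 in untreated WT samples, 2968 to 4428 after LPS in WT, 634 to 693.6 in untreated S534A samples and 3083 to 4415 after LPS in S534A. Of 13 Kupffer cell markers 10 fell and 1 rose in both genotypes (Clec4f by −1.17 ± 0.10 in WT), and their summed signal went from between 12640 and 17230 to between 7104 and 8287 in WT and from between 11860 and 15230 to between 6516 and 8187 in S534A. Of 11 sinusoidal endothelial markers 9 fell and 2 rose in both genotypes. Their summed signal went from between 10250 and 11640 to between 4848 and 6039 in WT and from between 10520 and 11420 to between 4550 and 5670 in S534A.

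Of 12 stellate cell and fibroblast markers 7 fell in WT and 8 in S534A, and their sum went from between 10820 and 11670 to between 7073 and 8741 in WT and from between 10520 and 12300 to between 7091 and 8504 in S534A. Of 4 measured monocyte markers 2 rose and 1 fell in WT and 3 rose and 1 fell in S534A, with sums of 1947 to 2822 untreated and 1886 to 2512 after LPS in WT and of 1488 to 1935 and 1680 to 1934 in S534A. Their mean log2 level, in which each marker weighs equally, did not overlap: it was 7.40 to 7.61 untreated and 8.03 to 8.42 after LPS in WT and 7.07 to 7.37 and 7.92 to 8.15 in S534A. Plac8 rose by 2.42 ± 0.15 and Itgam by 1.22 ± 0.15 in WT, while Lyz2 fell by 0.87 ± 0.11. B cell markers had 3 of 5 lower in both genotypes, T and NK cell markers 1 of 5 higher in both and 1 lower in WT, and cholangiocyte markers 1 of 4 higher and 1 lower in both. Hepatocyte markers had 2 of 7 higher in WT, Hnf4a and Apob, and 0 in S534A. With each array centred on its median the hepatocyte counts were 0 higher and 2 lower in both genotypes. Several other marker counts also shifted with this centring. For T and NK cell markers they became 1 higher and 2 lower in both genotypes, while those for neutrophils stayed the same. RMA values have no true 0, so no marker is listed as absent. Which cells carried the rises of Ikbke, Tbk1, Map3k8, Map3k14 and Ikbkg was not tested.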

How the data were processed

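Array values were deposited by the authors on a log2 scale after RMA, per the submitters' processing notes, which name no software version. The table held 35556 probe sets, of which 21789 had 1 gene symbol. Probe sets had to exceed the 30th percentile of the array on 4 or more arrays. The brightest probe set by mean stood for each gene, and 15908 genes were tested. Limma 3.58.1 in R 4.3.3 fitted 4 group means over all 16 arrays (12 residual degrees of freedom, two-sided tests) and was tested on simulated data. Precision is limited by the array number, with a median standard error of 0.099 for a difference.

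The genes and lists were chosen with earlier results of these data known. Named were all members, Rela, up to 4 genes of lowest p in WT from each pathway list, up to 3 from each marker list and the 3 genes nearest in profile to each of the 3 strongest risers. From these the text gives a selection; Ppm1b, Ppp6c, Rel, Irf3 and Mavs, and the genes set against the clock score, were named after their values were seen. Same-numbered samples correlated in their deviations from the group means with r from −0.49 to 0.59. Differently numbered samples were not set beside them, so this range cannot decide whether the numbers pair the samples. The main fit treated the samples as unpaired. Alternatives changed the filter, probe set rule, scaling, weights, variance model, samples and covariates. Figures were drawn with matplotlib 3.10.9.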

Additional observations from a re-analysis of the deposited data

Results flagged for a closer look

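Of 36 gene and group combinations, 2 had a sample set far apart from the other 3, where chance flags about 1 in 20. Both were the first LPS-treated S534A sample: Map3k8 read 9.23 there and 8.68 to 8.77 in the other 3, and Ikbkb read 9.09 against 9.03 in each of the other 3. Without this sample the Map3k8 difference between S534A and WT after LPS was −0.01 in place of 0.11, and neither value was called.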

How the results depend on the processing

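The 5 rises after LPS in each genotype kept their direction and their call without any single array and under every alternative except a 1.5-fold minimum, which 3 of the 5 passed in WT and 3 in S534A (Ikbke, Tbk1 and Map3k8). The number of genes called lower after LPS in S534A was 1, Map3k7, in place of 0 with arrays centred on their medians, with array quality weights and with only the groups compared. Array quality weights also gave 1 call, Map3k7, between untreated genotypes. With the replicate number as a block (replicate block), the counts were 5 higher in WT, 5 higher in S534A and 0 in each genotype comparison and the interaction; it changed no call of these genes. Leaving out single arrays moved the Ikbke rise in WT between 2.43 and 2.76.

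Over all genes, centring the arrays on their medians moved the median LPS difference in WT from −0.05 to −0.16, and that in S534A from −0.03 to −0.13. The share of called genes that were higher went from 33.3% to 22.1% in WT, and for S534A it was 21.5% in place of 31.3%. Array quality weights gave 3399 genes higher after LPS in S534A in place of 2258, 215 higher and 155 lower between untreated genotypes in place of 1 and 1, and 3 for the interaction in place of 0. Leaving out single arrays gave 0 to 7 calls between untreated genotypes and 0 to 2 for the interaction, and after LPS the genotypes gave 0 calls throughout. Signal over background could not be assessed from these values.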
